A study of Homo sapiens with 72 samples.

Results

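MK-2206 is an allosteric inhibitor of the AKT kinases, and its highest dose, 10000 nM, was profiled here in U2OS cells, a human osteosarcoma line. The wells were chosen by their labels: 3 of the 72 wells of the series received MK-2206 at 10000 nM, and 18 received DMSO, the solvent control. All wells of the comparison were kept for 12 h with compound or DMSO before population RNA-seq, in which poly(A) RNA of a whole well is sequenced. For comparison, MK-2206 at 100 nM and 1000 nM, nilotinib at 10000 nM (an inhibitor of the BCR-ABL kinase) and pyrazolanthrone at 10000 nM (an inhibitor of the JNK kinases, also known as SP600125) had 3 wells each. The compound carries a code name in the labels, where MK-2206 is given with it. U2OS is 1 cell line, and nothing in the labels says that wells of a group came from separate cultures, so p-values measure the spread between wells, which may be technical.

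AKT is the central kinase of growth factor signalling. Receptor tyrosine kinases activate PI3K, PI3K recruits AKT to the membrane, and active AKT phosphorylates FOXO transcription factors, which then leave the nucleus. AKT also raises mTORC1 activity, which restrains the lysosomal factor TFEB and autophagy and favours lipid synthesis through the SREBP factors and amino acid synthesis through ATF4. When AKT is blocked, FOXO factors are known to return to the nucleus and to raise receptor genes, and the ERK branch of the same receptors can be released from feedback.

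Expected counts summed to 25.8, 41.8 and 30.5 mil in the 3 MK-2206 wells. The DMSO wells ranged from 0.460 to 56.4 mil, and the lowest value belonged to DMSO replicate 10, which stood apart. Libraries differed in how strongly a gene's level followed its GC content, with a slope of -0.162 to 0.272 in MK-2206 wells and -0.401 to 0.333 in DMSO wells. Fragment length was 141 to 196 bases with MK-2206 and 144 to 217 bases with DMSO. The mesenchymal markers of this line summed to between 7543 and 8116 CPM (expected counts scaled to the well's total) with MK-2206 and between 7001 and 8488 CPM with DMSO. Among these 11 genes, 3 averaged under 1 CPM in both groups, 1 was at 0 in all wells, and RUNX2, the osteoblast factor, rose (log2 fold change 0.71 ± 0.12). The 7 leukocyte markers summed to at most 0.885 CPM with MK-2206 and 1.41 CPM with DMSO, and the 4 adipocyte markers to at most 0.359 and 0.277 CPM. Epithelial markers summed to 579 to 795 CPM with MK-2206 and 472 to 684 CPM with DMSO, and none of the 5 tested passed. The 5 endothelial markers summed to 4.21 to 4.72 CPM with MK-2206 and 2.86 to 8.70 CPM with DMSO, and CDH5 of this list rose. In RNA of whole wells, a change in the number of cells of a type and a change in RNA per cell cannot be told apart, and the part of other cells in the results was not tested.

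Cholesterol synthesis and uptake is the list with the largest share of members past the test, and the promoters of 3 members are shown because a short element recurs among them. The CCAAT box, the letters CCAAT on either strand, was found in 33% of 27305 RefSeq promoters (250 bases before the start) and in 34.4% of the 12397 promoters of tested genes. In the cholesterol list it was found in 16 of the 22 tested members with a promoter (72.7%), and in 8 of 10 members that rose. The capitals below mark CCAAT or its reverse complement and, for SREBF2, also TCACCCCAC, a sterol response element, which 0.348% of all promoters held. In the cholesterol list SREBF2 alone held it, 1 of the 22 tested members with a promoter (4.55%).
SREBF2 (chr22:41832855-41833104, plus strand, GRCh38.p14): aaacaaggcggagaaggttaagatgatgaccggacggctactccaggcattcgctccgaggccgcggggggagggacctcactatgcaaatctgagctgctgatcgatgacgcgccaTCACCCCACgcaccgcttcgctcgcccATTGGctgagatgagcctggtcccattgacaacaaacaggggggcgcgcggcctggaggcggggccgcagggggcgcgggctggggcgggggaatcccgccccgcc
MSMO1 (chr4:165327419-165327668, plus strand, GRCh38.p14): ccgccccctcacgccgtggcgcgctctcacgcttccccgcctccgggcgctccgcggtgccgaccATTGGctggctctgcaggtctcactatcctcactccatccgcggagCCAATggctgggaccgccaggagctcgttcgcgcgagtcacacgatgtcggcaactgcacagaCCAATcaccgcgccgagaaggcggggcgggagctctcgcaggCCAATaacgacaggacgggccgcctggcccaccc
HSD17B7 (chr1:162790452-162790701, plus strand, GRCh38.p14): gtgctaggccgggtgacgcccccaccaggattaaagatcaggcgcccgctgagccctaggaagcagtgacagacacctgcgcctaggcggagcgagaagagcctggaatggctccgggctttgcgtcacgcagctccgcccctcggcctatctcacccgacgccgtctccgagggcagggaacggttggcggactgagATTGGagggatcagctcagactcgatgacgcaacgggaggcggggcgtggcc
MSMO1 held 4 such boxes, while SREBF2 and HSD17B7 held 1 each. A match is a run of letters and not evidence of binding.

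CCN2 and ANKRD1, known targets of the YAP and TEAD factors, were among the largest rises, and their promoters are shown with GGAATG, a TEAD element, in capitals. This element was found on either strand in 11.9% of all promoters, in 9.59% of those of tested genes, in 10 of the 66 promoters of genes called higher (15.2%) and in 6 of the 22 promoters of genes called lower (27.3%).
CCN2 (chr6:131951373-131951622, minus strand, GRCh38.p14): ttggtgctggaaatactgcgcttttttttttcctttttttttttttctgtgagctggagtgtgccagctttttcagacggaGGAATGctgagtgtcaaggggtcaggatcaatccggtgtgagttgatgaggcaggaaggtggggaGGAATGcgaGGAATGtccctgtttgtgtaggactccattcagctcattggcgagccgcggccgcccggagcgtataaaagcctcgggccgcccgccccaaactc
ANKRD1 (chr10:90921088-90921337, minus strand, GRCh38.p14): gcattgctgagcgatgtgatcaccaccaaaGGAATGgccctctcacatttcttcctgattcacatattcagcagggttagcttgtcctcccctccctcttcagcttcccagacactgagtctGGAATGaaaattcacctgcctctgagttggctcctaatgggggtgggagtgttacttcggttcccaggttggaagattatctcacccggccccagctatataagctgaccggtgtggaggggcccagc
CCN2 held 3 of these elements and ANKRD1 held 2. The forkhead element GTAAACA, to which FOXO factors bind, was found in 2 of the 66 promoters of genes called higher (3.03%) against 1.88% of those of tested genes. In the FOXO list it was found in 2 of 27 tested members and in 0 of the 5 that rose and had a promoter. TCACGTGA, the CLEAR element of TFEB, was found in 4 of 27 tested members of the lysosome list (14.8%) against 1.54% of tested genes, and in 0 of the 7 lysosome members that rose and had a promoter.

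Against DMSO, 10000 nM MK-2206 raised 104 genes and lowered 28 of 18575 tested (adjusted p under 0.05 by edgeR's quasi-likelihood test and an absolute log2 fold change above 1), or 0.56% and 0.151% of those tested. By the adjusted p alone, which is the test meant by passed, rose or fell below, 410 genes (2.21%) were higher and 176 (0.948%) lower, or 3.15% together. The median log2 fold change of all tested genes was -0.02. Of the 104 raised genes, 81 are protein coding and 18 are long non-coding RNAs, 46 averaged under 1 CPM over the 21 wells and 29 at least 10 CPM. All 3 MK-2206 wells lay above all 18 DMSO wells for 77 of the 104, compared with 1.94% of all tested genes. All 3 lay below for 7 of the 28 lowered genes, compared with 0.641%. A gene without reads in the shallow DMSO replicate 10 (0.460 mil counts) cannot lie below every DMSO well. Only 3 of the 28 averaged at least 10 CPM, so the shares for raised and lowered genes are not alike. When the libraries' GC slope entered the fit as a covariate, 1011 genes (5.44%) were higher and 1030 (5.55%) lower by adjusted p alone, and 128 of the 132 calls past both thresholds were shared.

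**Figure D1:**
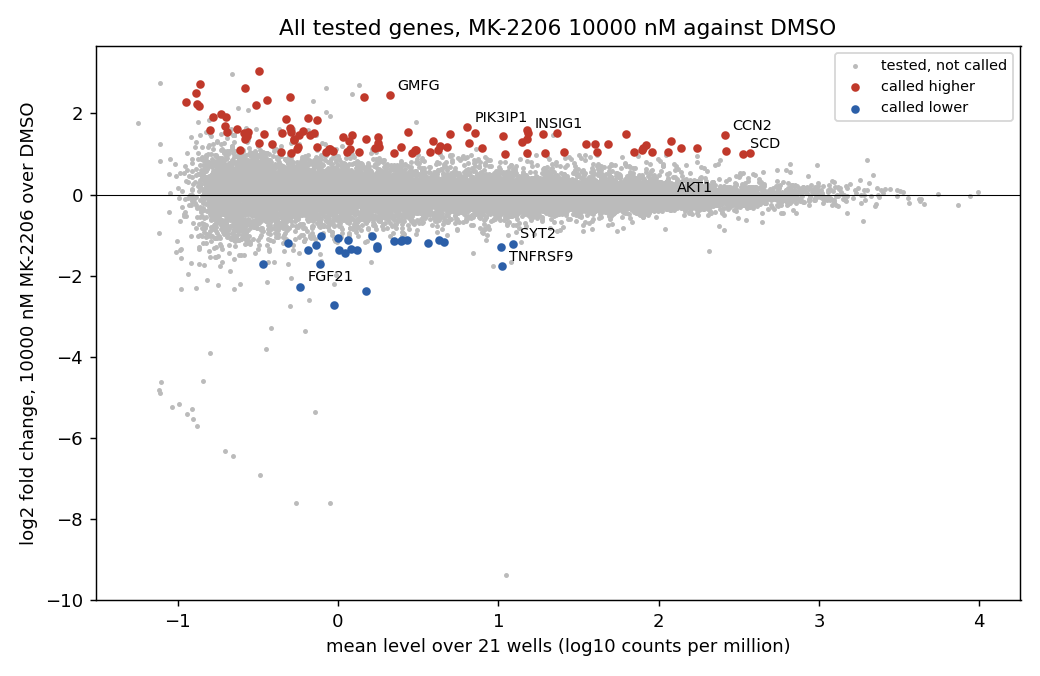
Log2 fold change of 10000 nM MK-2206 over DMSO for each of 18575 tested genes against its mean level over 21 wells (log10 CPM). Red points are the 104 genes called higher and blue points the 28 called lower, and 17 grey points below -4 were not called. AKT1 lies at -0.06.

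The drug's own targets did not change detectably at the RNA level. AKT1 had 126, 97.7 and 116 CPM with MK-2206 and 91.5 to 152 CPM with DMSO (median 116), a log2 fold change of -0.06 ± 0.12 (SE, adjusted p = 0.91). AKT2 (log2 fold change -0.08 ± 0.10) did not pass the test either, and all MK-2206 wells of both genes lay inside the DMSO range. Per transcript length, AKT2 was at 151 ± 14.8 TPM and AKT1 at 75.4 ± 7.42 TPM (SD, n = 3) under MK-2206.

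PIK3IP1, which encodes a membrane protein that inhibits PI3K, had the largest rise among the protein-coding genes called with at least 5 CPM and no overlap with DMSO. The gene lies at chr22:31281594-31292534 (GRCh38). Its level was 15.9, 14.3 and 17.2 CPM in the 3 MK-2206 wells and 2.17 to 7.23 CPM in the DMSO wells (median 4.71). No MK-2206 well overlapped the DMSO range, and the log2 fold change was 1.66 ± 0.16 (SE, adjusted p = 2.36e-07). It was one of only 3 of the 29 PI3K, AKT and mTOR pathway genes that passed. PIK3CD, a catalytic subunit of PI3K, was higher with 78.8, 70.3 and 75.9 CPM against 43.0 to 65.6 CPM (log2 fold change 0.44 ± 0.11, adjusted p = 0.018). DDIT4, the mTORC1 inhibitor REDD1 and itself a target of stress factors, was lower, with 30.6, 32.6 and 32.0 CPM against 41.8 to 78.3 CPM (-0.89 ± 0.11, adjusted p = 1.92e-05). The list's median log2 fold change was -0.02, the same as over all tested genes. PIK3CD no longer passed in 2 fits with 1 MK-2206 well left out (adjusted p of up to 0.14, without replicate 1).

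Of 20 tested receptor tyrosine kinases and adaptors, 3 rose and 1 fell. EGFR, the epidermal growth factor receptor, had 122, 195 and 183 CPM with MK-2206 and 53 to 95.4 CPM with DMSO (median 67.5). Its log2 fold change was 1.23 ± 0.15 (SE, adjusted p = 1.04e-05), and all MK-2206 wells lay above the highest DMSO well. IGF1R, the receptor of insulin-like growth factors, rose by 0.44 ± 0.07 on the log2 scale (adjusted p = 0.00049), and the adaptor GAB2 by 0.61 ± 0.14 (adjusted p = 0.012). ERBB3, a known FOXO-responsive receptor, fell by 0.55 ± 0.15 (adjusted p = 0.034), with 6.04, 5.57 and 6.85 CPM against 6.52 to 11.3 CPM. INSR, the insulin receptor and another gene known to respond to FOXO, was at 12.5, 14.4 and 16.8 CPM against 11.3 to 18.1 CPM and did not pass (log2 fold change 0.13 ± 0.12, adjusted p = 0.79). The adaptor gene IRS2 was listed at 0 in all wells of both groups. GAB2 and ERBB3 each lost the threshold with 1 MK-2206 well left out (adjusted p of up to 0.16 without replicate 3 and up to 0.27 without replicate 2), and ERBB3 was lost in 8 of 21 such fits in all, with 0.067 without DMSO replicate 11.

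Among 31 tested FOXO factors and target genes, 7 rose and 1, ERBB3, fell, with a median log2 fold change of 0.20. Beside PIK3IP1, the muscle atrophy ubiquitin ligase gene FBXO32 had 11.7, 20.1 and 15 CPM against a DMSO median of 5.54 CPM. Its highest DMSO value, 15.2 CPM, came from the shallow replicate 10. The log2 fold change was 1.53 ± 0.15 (adjusted p = 6.62e-07) and remained past the threshold without that well (adjusted p = 1.64e-08). KLF6, a zinc finger transcription factor, had 44.5, 49.6 and 46.1 CPM against 19.5 to 26.1 CPM (1.05 ± 0.08, adjusted p = 9.04e-09). GABARAPL1, which encodes an ATG8 family protein of autophagosomes, had 54.8, 62.4 and 60.7 CPM against 26.8 to 43.5 CPM (0.97 ± 0.08, adjusted p = 1.42e-08). PINK1, BCL6 and MXI1 also rose, with log2 fold changes of 0.70, 0.50 and 0.42. MXI1 was lost in 5 of the 21 fits with 1 well left out, with adjusted p of up to 0.23 without MK-2206 replicate 3 and 0.051 without DMSO replicate 12. Several textbook FOXO targets did not pass: CCNG2 (cyclin G2) was at 23.5, 31.5 and 27.6 CPM against a DMSO median of 17.2 CPM (0.54 ± 0.22, adjusted p = 0.26, or 0.010 with GC slope as a covariate). CDKN1B, the p27 cell cycle inhibitor, differed by -0.05 ± 0.12 and BCL2L11, the apoptosis activator BIM, by 0.12 ± 0.08 (adjusted p = 0.93 and 0.64).

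Of the 29 tested members of the list of cholesterol synthesis and uptake, 15 rose and none fell, and the median log2 fold change was 0.61 against -0.02 over all tested genes. For 13 of them all 3 MK-2206 wells lay above every DMSO well. The number that rose was 13 or 14 with 1 MK-2206 well left out, 15 to 17 with 1 DMSO well left out, and 21 with GC slope as a covariate, where 2 fell.

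INSIG1, the sterol sensor that retains SREBP in the endoplasmic reticulum, lies at chr7:155297776-155310235 (GRCh38). It had 33.2, 35.6 and 36.3 CPM with MK-2206 and 8.70 to 14.7 CPM with DMSO (median 11.9). The groups were far apart, with a log2 fold change of 1.52 ± 0.11 (SE, adjusted p = 9.04e-09). INSIG1-DT, a divergent transcript at the same promoter that was examined after its values were seen, was also called higher. SREBF2, which encodes the sterol-responsive factor SREBP2, had 288, 250 and 301 CPM against 149 to 213 CPM (0.65 ± 0.09, adjusted p = 8.56e-05). NPC1 and NPC2 of the lysosome list, which export cholesterol from the lysosome, rose by 0.75 ± 0.13 and 0.71 ± 0.19 on the log2 scale (adjusted p = 0.0012 and 0.031).

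Some enzymes of the mevalonate, squalene and late stages of the sterol route rose. At the mevalonate stage, the mevalonate kinase gene MVK had 64.7, 46.6 and 57.5 CPM against 23.7 to 40.4 CPM (0.86 ± 0.13), and the decarboxylase gene MVD had 66.8, 52.3 and 66.9 CPM against 26.9 to 46.1 CPM (0.71 ± 0.12). At the squalene stage, FDFT1, the squalene synthase gene, had 248, 279 and 258 CPM against 73.9 to 138 CPM (1.14 ± 0.12, adjusted p = 9.35e-07). SQLE, which encodes the next oxygenating enzyme, rose by 0.97 ± 0.12. Both lay above every DMSO well. Among the late enzymes, MSMO1 (1.01 ± 0.21, adjusted p = 0.0056), HSD17B7 (0.93 ± 0.13), DHCR7 (0.84 ± 0.09), CYP51A1 (0.72 ± 0.14) and NSDHL (0.61 ± 0.09) rose. IDI1, the isomerase of the isoprenoid units, rose by 0.82 ± 0.17, with 39.1 CPM in DMSO replicate 10 above all its MK-2206 wells. MSMO1 lost the threshold without MK-2206 replicate 1 (adjusted p = 0.059).

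Not all members moved past the test. HMGCS1, an early synthase of the route, had 110, 282 and 151 CPM against 52.8 to 218 CPM and did not pass (0.60 ± 0.34, adjusted p = 0.52). With the GC slope as a covariate its log2 fold change was 0.74 (adjusted p = 1.37e-05). LSS (0.32 ± 0.11), SC5D (0.41 ± 0.21) and STARD4 (0.70 ± 0.21) also did not pass, with adjusted p between 0.067 and 0.45.

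Of 20 tested genes of fatty acid synthesis, 5 rose and none fell, with a median of 0.07. SCD, the desaturase that makes oleate, had 518, 644 and 624 CPM against 247 to 359 CPM (log2 fold change 1.0 ± 0.10, adjusted p = 9.35e-07). The desaturase gene FADS2 had 318, 265 and 318 CPM against 114 to 185 CPM (0.95 ± 0.10), and LPIN1, the phosphatidate phosphatase lipin, had 83.7, 97.4 and 103 CPM against 49.7 to 65.4 CPM (0.70 ± 0.08). All wells of these 3 genes lay above every DMSO well. FADS1 and FASN, the fatty acid synthase gene, rose by 0.40 and 0.46. FASN lost the threshold in 2 fits with 1 MK-2206 well left out (adjusted p of up to 0.27, without replicate 3). SREBF1 (0.00 ± 0.15), ACLY (-0.01 ± 0.07) and ACACA (0.15 ± 0.12) did not pass. PNPLA3, a lipid droplet protein gene, was higher by 0.80 ± 0.13 (adjusted p = 0.0003).

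**Figure D2:**
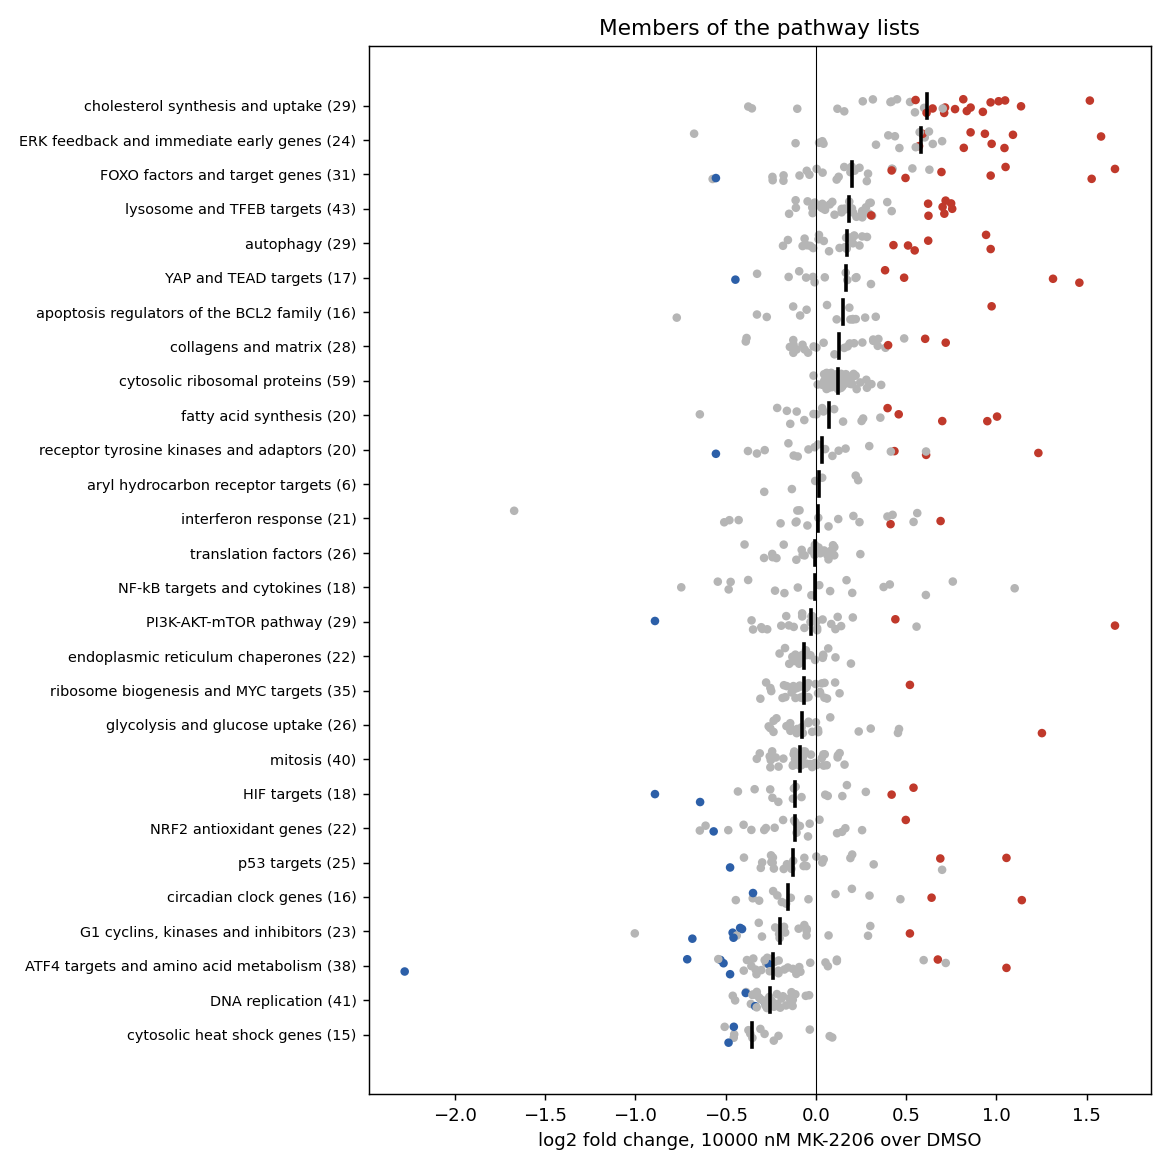
Log2 fold change of 10000 nM MK-2206 over DMSO for each tested member of 28 pathway lists, with the number tested in brackets and the median as a black bar. Red and blue points passed an adjusted p of 0.05 upward and downward, grey points did not. The cholesterol list has the highest median (0.61) and the heat shock list the lowest (-0.35).

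Of 24 tested genes of ERK feedback and the immediate early response, 9 rose, none fell and the median log2 fold change was 0.58. IL17RD, the ERK pathway inhibitor SEF, had 25.3, 44.6 and 36.4 CPM against 9.53 to 15.1 CPM (1.58 ± 0.13, adjusted p = 1.69e-08). IER3, an immediate early gene, had 75.7, 76.3 and 72.5 CPM against 23.6 to 43.2 CPM (1.05 ± 0.12), and the ERK phosphatase gene DUSP5 had 26.1, 34.6 and 29.8 CPM against 9.32 to 21.2 CPM (0.97 ± 0.20). Each of these wells lay above the DMSO range. The Sprouty inhibitors SPRY4 and SPRY2 rose by 1.09 ± 0.26 and 0.86 ± 0.15, and the ETS factors ETV1, ETV5 and ETV4 by 0.94, 0.59 and 0.57. PHLDA1 rose by 0.82 ± 0.17. SPRY4 lost the threshold with 1 MK-2206 well left out (adjusted p of up to 0.11, without replicate 1), and the list's count then fell to 6. DUSP6, the ERK phosphatase most used as a readout, was at only 0.620, 0.751 and 0.777 CPM and did not pass (0.60 ± 0.26).

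The immediate early genes EGR1 and FOS depended on the shallow DMSO well. EGR1 had 118, 180 and 120 CPM with MK-2206 and a DMSO median of 68.3 CPM, with 689 CPM in DMSO replicate 10. FOS had 18.8, 24.7 and 19.8 CPM against a median of 12.0 CPM, with 152 CPM in that well. With all 18 DMSO wells neither passed (adjusted p = 0.67 and 0.68), and without replicate 10 both did (adjusted p = 0.00097 and 0.0027).

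Of 17 tested YAP and TEAD targets, 4 rose and 1 fell. CCN2, also known as CTGF, a secreted matrix protein gene at chr6:131948176-131951372, had 521, 663 and 532 CPM against 138 to 285 CPM (log2 fold change 1.46 ± 0.17, adjusted p = 6.09e-06). ANKRD1, at chr10:90912096-90921087, had 250, 242 and 239 CPM against 72.0 to 141 CPM (1.31 ± 0.12, adjusted p = 1.79e-07). CCN1 and CRIM1 rose by 0.49 and 0.38, and AJUBA, which encodes a scaffold protein of the Hippo pathway, fell by 0.45. CRIM1 and AJUBA each lost the threshold in 2 fits with 1 MK-2206 well left out (adjusted p of up to 0.12 and 0.14, without replicate 2). In the matrix list, 3 of 28 rose and none fell: TIMP1 (0.72 ± 0.12), TIMP2 (0.40 ± 0.06) and THBS1 (0.61 ± 0.11).

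In the lysosome and TFEB list 8 of 43 rose and none fell, with a median of 0.19. CTSB, the protease cathepsin B, had 1074, 978 and 1039 CPM against 486 to 712 CPM (0.76 ± 0.08, adjusted p = 3.04e-06). FLCN, which encodes the tumour suppressor folliculin of the lysosomal nutrient sensor, had 85.6, 73.3 and 85.9 CPM against 42.5 to 58.8 CPM (0.72 ± 0.09, adjusted p = 1.39e-05). NEU1, CLCN7, GPNMB and TPP1 rose by 0.70, 0.62, 0.62 and 0.31. In the autophagy list 6 of 29 rose and none fell. WIPI1, a phosphoinositide-binding protein of early autophagosomes, had 33.1, 35.9 and 36.3 CPM against 10.9 to 20.6 CPM (0.94 ± 0.10, adjusted p = 2.54e-06). The autophagy receptors NBR1, SQSTM1 and OPTN rose by 0.62, 0.55 and 0.51. Without an MK-2206 well, 5 to 7 lysosome genes and 4 to 6 autophagy genes passed, and with GC slope as a covariate 17 and 8 did. NPC2 and SQSTM1 were among those lost, in 3 and 2 fits without an MK-2206 well. Their adjusted p reached 0.26 without replicate 2 and 0.13 without replicate 1.

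The ATF4 list moved in both directions, with 2 of 38 genes higher and 6 lower. FGF21, a stress hormone gene, was at 0.116, 0.144 and 0.164 CPM against a DMSO median of 0.587 CPM (-2.28 ± 0.44, adjusted p = 0.0025), a very low level in both groups. PSAT1 and PSPH, which encode enzymes of serine synthesis, fell by 0.51 ± 0.08 and 0.53 ± 0.12. PSAT1 had 63.4, 59.7 and 68.7 CPM against 80.8 to 100 CPM, with no overlap. CHAC1, a glutathione-degrading enzyme gene, fell by 0.71 ± 0.17, SESN2 by 0.47 and the arginine transporter gene SLC7A1 by 0.26. GDF15 and DDIT3, the stress factor CHOP, rose by 1.06 and 0.68. Of these, CHAC1, PSPH and DDIT3 each lost the threshold in 2 fits with 1 MK-2206 well left out. The adjusted p reached 0.19 and 0.13 without replicate 2 for CHAC1 and PSPH, and 0.24 without replicate 1 for DDIT3. SESN2 also lost it without MK-2206 replicate 2 (0.34). SESN2 was lost in 9 of the 21 fits with 1 well left out, with 0.077 without DMSO replicate 15.

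Among 23 tested G1 genes, 5 fell and 1, MYC, rose. CCND2, cyclin D2, had 163, 157 and 161 CPM against 198 to 240 CPM (-0.46 ± 0.07, adjusted p = 0.00023). CDC25A, the phosphatase that activates CDK2, had 60.0, 57.1 and 52.8 CPM against 67.6 to 81.8 CPM (-0.46 ± 0.08), and CCNE1, cyclin E1, had 60.5, 56.1 and 51.9 CPM against 65.9 to 87.0 CPM (-0.41 ± 0.07). All 3 genes lay below every DMSO well. E2F2 and E2F8 fell by 0.68 and 0.42, and each lost the threshold with 1 MK-2206 well left out (adjusted p = 0.28 without replicate 2 and 0.19 without replicate 1). E2F2 was lost in 8 of the 21 fits with 1 well left out, with 0.065 without DMSO replicate 11. CCND1, cyclin D1, was at 235, 224 and 232 CPM against 180 to 284 CPM and did not pass (0.07 ± 0.09). MYC had 234, 202 and 202 CPM against 123 to 171 CPM (0.52 ± 0.10, adjusted p = 0.0022).

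In the DNA replication list no tested gene had a positive log2 fold change, the median was -0.26 over 41 genes, and 3 fell. These were RFC5 (-0.39 ± 0.11), TYMS (-0.34 ± 0.09) and MCM4 (-0.28 ± 0.08), with adjusted p between 0.043 and 0.045. None passed with any 1 MK-2206 well left out, and 0 to 10 passed with 1 DMSO well left out. The adjusted p then reached 0.32 without MK-2206 replicate 1 for RFC5 and TYMS and 0.23 without MK-2206 replicate 2 for MCM4. Of the list, 10 passed without DMSO replicate 10 and 19 with GC slope as a covariate, all of them lower. None of 40 mitosis genes passed (median -0.09), including CDC20, the activator of the anaphase-promoting complex (-0.13 ± 0.13). CCNF, cyclin F, did not pass either (-0.03 ± 0.10).

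Most other lists held few members past the test. Of 26 glycolysis genes only SLC2A3, the glucose transporter GLUT3, rose, with 65.6, 97.9 and 73.8 CPM against 17.4 to 56.5 CPM (1.25 ± 0.18, adjusted p = 7.52e-05). Of 16 genes of the BCL2 family only HRK, an apoptosis activator, rose (0.97 ± 0.17). Of 16 clock genes BHLHE40 (1.14 ± 0.09) and NPAS2 (0.64) rose and PER3 (-0.35) fell. Of 18 HIF targets BNIP3L (0.54) and MXI1 rose, and CA12 (-0.64) and DDIT4 fell. Of 22 NRF2 genes HMOX1 (0.50) rose and SRXN1 (-0.57) fell, of 25 p53 targets PLK3 (0.69) and GDF15 rose and SESN2 fell, of 21 interferon genes STAT2 (0.41) and IRF9 (0.69) rose, and of 15 heat shock genes HSPB8 (-0.48) and HSPA1B (-0.45) fell. Among 35 genes of ribosome biogenesis only MYC rose. None passed of 22 endoplasmic reticulum chaperones, 26 translation factors, 59 ribosomal proteins, 18 NF-kB targets and 6 aryl hydrocarbon receptor targets by edgeR, while DESeq2 passed 1, 2, 1, 1 and 0 of them. With 1 MK-2206 well left out, PER3 (0.34), IRF9 (0.44), PLK3 (0.12) and HMOX1 (0.12) lost the threshold without replicate 1, as did SRXN1 (0.085), and HSPA1B (0.40) and HSPB8 (0.11) without replicate 2, with the adjusted p in brackets. PER3, HSPA1B and IRF9 lay close to the threshold and were lost in 17, 16 and 13 of the 21 fits with 1 well left out, mostly a DMSO well, with adjusted p of up to 0.083, 0.11 and 0.064 without DMSO replicates 11, 15 and 9.

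The remaining genes among the 10 largest rises have less defined roles in this pathway. ARHGEF28, an exchange factor for RHOA, had 37.6, 45.8 and 44.6 CPM against 11.8 to 18.4 CPM (1.48 ± 0.11, adjusted p = 1.42e-08). CLEC2B, a lectin gene, had 11.2, 12.1 and 11.3 CPM against 2.17 to 7.27 CPM (1.49 ± 0.18). KLHL24, a ubiquitin ligase adaptor gene, had 19.2, 29.7 and 21.4 CPM against 5.68 to 12.1 CPM (1.44 ± 0.17), and ABTB1 had 35.7, 30.8 and 32.9 CPM against 2.17 to 15.4 CPM (1.37 ± 0.14). YPEL3 had 17.7, 9.62 and 12.3 CPM against 3.54 to 8.66 CPM (1.27 ± 0.20). Only 3 lowered genes met the rule for the largest falls, and a lowered gene without reads in DMSO replicate 10 could not meet it. TNFRSF9, the co-stimulatory receptor 4-1BB at chr1:7915871-7943165, had 3.41, 3.25 and 3.11 CPM against 8.70 to 30.4 CPM (-1.77 ± 0.18, adjusted p = 9.06e-07), and its highest DMSO value was that of replicate 10. RAB7B, a small GTPase gene, had 5.69, 3.52 and 4.69 CPM against 6.82 to 18.9 CPM (-1.29 ± 0.24), and SYT2, a synaptotagmin gene, had 5.08, 5.72 and 6.45 CPM against 9.55 to 17.4 CPM (-1.21 ± 0.15). RAB7B lost the threshold without MK-2206 replicate 2 (adjusted p = 0.053).

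MK-2206 at 100 and 1000 nM shares the 18 DMSO wells, so its values against DMSO are given side by side. At 1000 nM, 36 genes were raised (0.194%) and 17 lowered (0.0918%) of 18526 tested, 0.286% together, and at 100 nM 1 was raised (0.0054%) and none lowered of 18530. By adjusted p alone 223 (1.2%) were higher and 59 (0.318%) lower at 1000 nM, and 11 (0.0594%) and 1 (0.0054%) at 100 nM. Of the sterol genes, 0 of 29 passed at either lower dose, with medians of -0.02 at 1000 nM and -0.03 at 100 nM. INSIG1 had 9.96, 8.53 and 9.75 CPM at 1000 nM and 10.4, 9.11 and 10.7 CPM at 100 nM, below all 3 wells at 10000 nM. SQLE had 84.8, 119 and 79.9 CPM at 1000 nM, and SCD had 208, 246 and 202 CPM, just below its lowest DMSO well at 247 CPM (log2 fold change -0.37, adjusted p = 0.13). Genes of ERK feedback showed another pattern: 8 of 24 passed at 1000 nM (median 0.64), and 2 at 100 nM (median 0.33). CCN2 was at 483, 751 and 469 CPM at 1000 nM and 550, 379 and 391 CPM at 100 nM, so that its 3 doses overlapped. EGFR was at 134, 107 and 116 CPM at 100 nM, above every DMSO well, a pattern seen for 0.205% of genes at 100 nM and 0.81% at 1000 nM. PIK3IP1 lay at 7.98, 4.48 and 7.42 CPM at 1000 nM and was not past the test there (0.47, adjusted p = 0.34), while KLF6 passed at all doses (0.50, 0.80 and 1.05 from low to high).

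**Figure D3:**
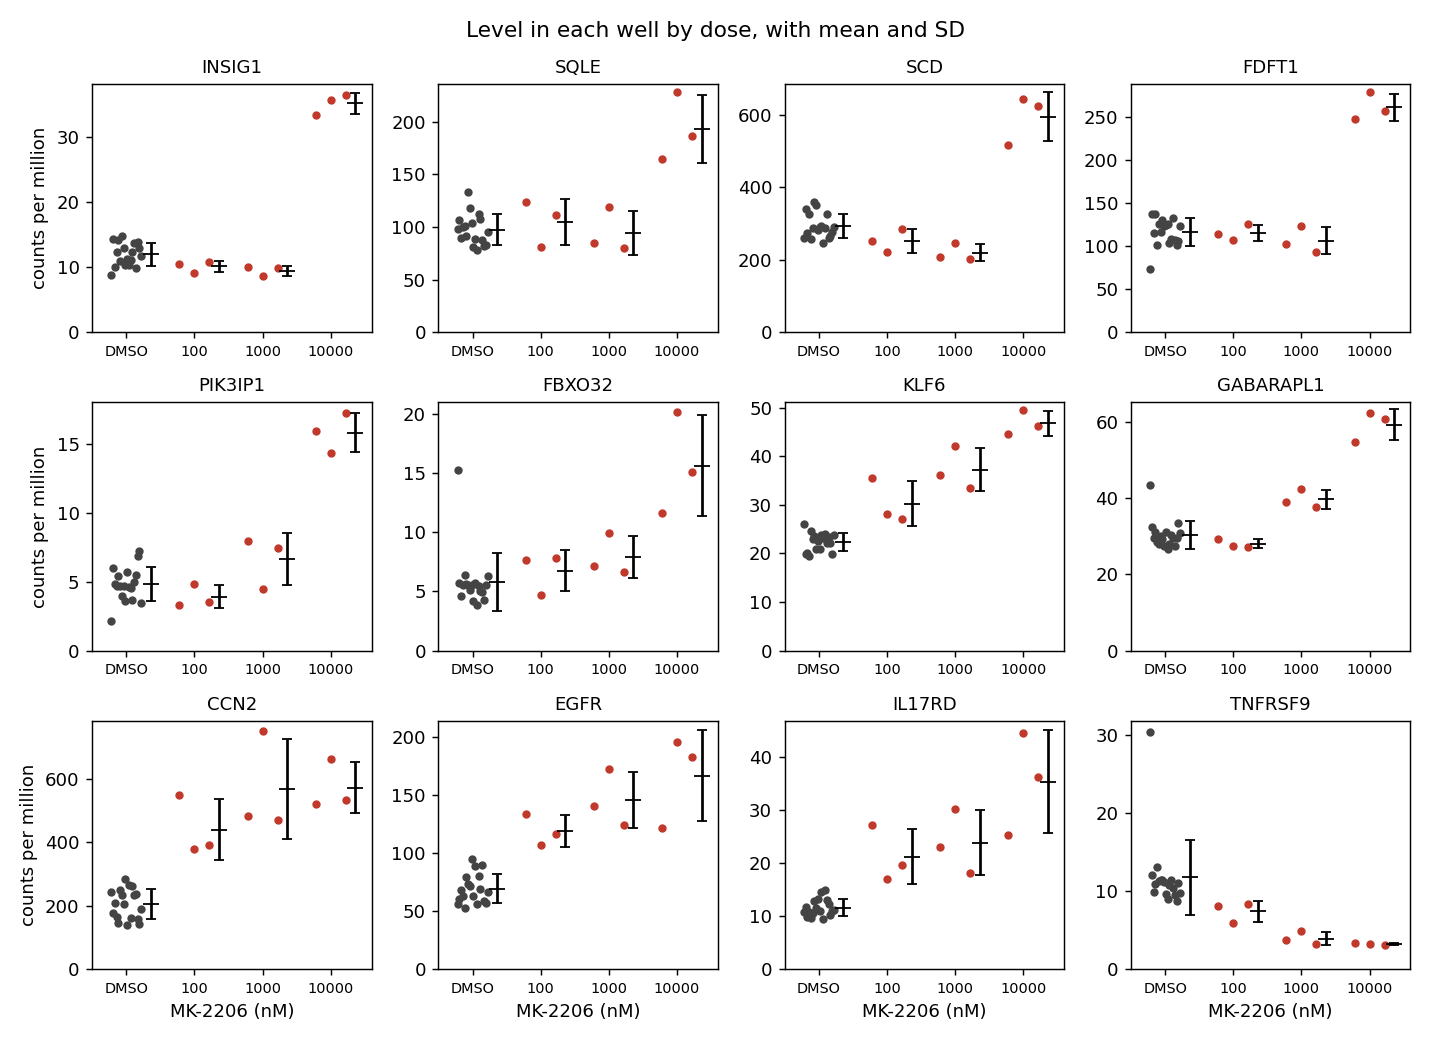
CPM in each well for 12 genes in DMSO (black) and with 100, 1000 and 10000 nM MK-2206 (red), with the mean and SD of each group. INSIG1, SQLE and FDFT1 overlap the DMSO wells at both lower doses, SCD lies below them at 1000 nM (202 to 246 CPM), and all 4 lie above them at 10000 nM, whereas CCN2, EGFR and IL17RD lie above the DMSO median from 100 nM.

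Compared directly with 1000 nM, 1 of 17308 genes was higher at 10000 nM (0.00578%) and none lower by edgeR, with 671 at an unadjusted p under 0.05 and 29 higher and 1 lower by DESeq2. That gene was INSIG1 (log2 difference 1.84, adjusted p = 0.049). Its wells did not overlap, which held upward for 7.31% and downward for 2.28% of genes, and it passed in only 1 of the 6 fits with 1 well left out. Same-numbered wells of these doses deviated together, although only 1 of the 3 wells at 10000 nM correlated best with its own number. Between 10000 and 100 nM the correlations of same-numbered wells were negative (-0.463, -0.691 and -0.145). In a fit of 10000 against 1000 nM blocked on the well number, 64 genes were higher (0.37%) and 4 lower (0.0231%). This block was taken up after the correlations were seen. Replicate 2 had the lowest GC slope at both doses (-0.162 and -0.214), and the part of GC slope in the blocked fit was not tested. In the blocked fit 18 of 29 sterol genes were higher by adjusted p alone, with 0.699% of all genes, and the median difference was 0.62. SQLE had an adjusted p of 0.00058, SCD 3.13e-05, FDFT1 8e-05 and PIK3IP1 0.0015. None of the 24 ERK feedback genes passed there (median -0.05). In a fit that took the spread from DMSO and all 3 doses together, chosen after seeing the data, 7 sterol genes were higher, with 0.117% of all genes. Against 100 nM no gene passed by edgeR, with 1377 at an unadjusted p under 0.05 and 44 higher and 3 lower by DESeq2. All wells lay above those at 100 nM for 11.4% of genes and below for 3.31%. In the joint fit 40 were higher (0.213%) and 2 lower (0.0106%). By adjusted p alone, 10 of 29 sterol genes were higher there, with 0.415% of all genes.

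**Figure D4:**
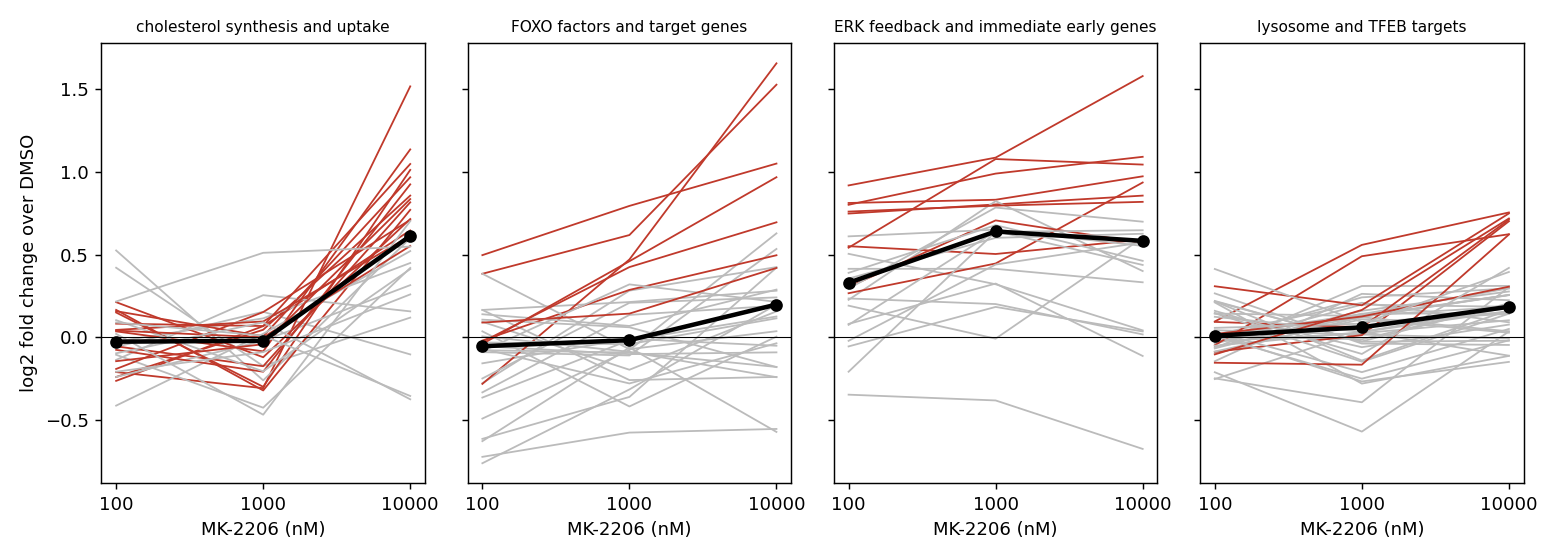
Log2 fold change over DMSO at 100, 1000 and 10000 nM MK-2206 for each member of 4 lists (thin lines) and the list median (black). Red lines are members higher at 10000 nM by adjusted p under 0.05. The sterol median is -0.02 at 1000 nM and 0.61 at 10000 nM, and the ERK median is 0.64 and 0.58.

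Against nilotinib at the same dose and time, 98 genes were higher with MK-2206 (0.556%) and 290 lower (1.65%) of 17624, or 2.2% together. By adjusted p alone, 2.07% were higher and 3.56% lower, or 5.63% together. The genes furthest below nilotinib were 3 cytokine genes. CXCL8, interleukin 8, had 0.503, 1.20 and 1.05 CPM with MK-2206 and 389, 282 and 202 CPM with nilotinib (log2 difference -8.26 ± 0.35, adjusted p = 1.33e-05). Its DMSO wells held 0.381 to 1.54 CPM, with 8.70 CPM in replicate 10, so the MK-2206 wells lay inside the DMSO range. CCL20 (-6.94 ± 0.40) and CXCL3 (-6.18 ± 0.22) followed. All 19 tested genes of the NF-kB list were lower with MK-2206 than with nilotinib, while none of the 18 tested against DMSO passed. YPEL3 (1.72 ± 0.23), PIK3IP1 (1.46 ± 0.17) and SLC2A12 (1.26 ± 0.28) were the furthest above. Of the sterol list 12 of 29 genes were higher and 1 lower than with nilotinib (median 0.50), and 21 of 37 ATF4 genes and 12 of 22 chaperones were lower. Of 24 ERK feedback genes 0 were higher and 6 lower (median -0.30). Of 31 FOXO genes 8 were higher and 2 lower (median 0.26). KLF6 had 59.5, 56.7 and 46.5 CPM with nilotinib, above its highest DMSO well at 26.1 CPM. FBXO32 had 14.4, 12.7 and 11.7 CPM with nilotinib, against 15.2 CPM in DMSO replicate 10 and 6.42 CPM in its next highest DMSO well. INSIG1 had 16.5, 18.8 and 15.3 CPM with nilotinib, between the highest DMSO well and the MK-2206 wells (log2 difference 1.05 ± 0.12). SLC2A12 lost the threshold without MK-2206 replicate 3 (adjusted p = 0.13) and without nilotinib replicate 1 (0.14). Without MK-2206 replicate 2, 452 genes were higher and 725 lower. GC slopes were -0.267 to -0.028 with nilotinib. MK-2206 replicate 2 was at -0.162, and replicates 1 and 3 at 0.272 and 0.120, above all nilotinib wells. The part of GC slope in the counts without replicate 2 was not tested.

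Against pyrazolanthrone at the same dose and time, 108 genes were higher with MK-2206 (0.631%) and 83 lower (0.485%) of 17103, or 1.12% together. By adjusted p alone, 1.74% were higher and 1.04% lower, or 2.78% together. PIK3IP1 had 4.46, 4.55 and 4.26 CPM with pyrazolanthrone (log2 difference 1.81 ± 0.13), within the DMSO range. AHNAK2 (1.72 ± 0.20) and PNPLA3 (1.56 ± 0.14) were the next furthest above. DDIT4 had 241, 235 and 244 CPM with pyrazolanthrone against 30.6, 32.6 and 32.0 with MK-2206 (-2.95 ± 0.09, adjusted p = 9.82e-06), on either side of the DMSO range. FUT1, a fucosyltransferase gene, differed by -2.97 ± 0.23 and TNFRSF9 by -2.18 ± 0.13. Of the ATF4 list 24 of 38 genes were lower with MK-2206 and none higher, with CHAC1 at 96.8, 92.6 and 92.8 CPM with pyrazolanthrone. Of the sterol list 14 of 29 were higher and 1 lower (median 0.78). Of 24 ERK feedback genes 0 were higher and 2 lower (median 0.11). Of 31 FOXO genes 5 were higher and 2 lower (median 0.28). With pyrazolanthrone KLF6 had 19.6, 19.6 and 16.2 CPM and FBXO32 had 7.09, 9.05 and 7.29 CPM. Without MK-2206 replicate 2, 486 genes were higher and 534 lower. GC slopes with pyrazolanthrone were -0.277 to -0.064, also below those of MK-2206 replicates 1 and 3 (0.272 and 0.120). The part of GC slope in the counts without replicate 2 was not tested here either. With both other inhibitors, all wells of EGFR, CCN2 and IL17RD also lay above their highest DMSO well. EGFR was at 201, 179 and 167 CPM with nilotinib and 98.3, 107 and 107 CPM with pyrazolanthrone, and its highest DMSO well was at 95.4 CPM. CCN2 was at 598, 589 and 456 CPM with nilotinib and 440, 529 and 410 CPM with pyrazolanthrone, and its highest DMSO well was at 285 CPM. IL17RD was at 24.1, 27.3 and 20.8 CPM with nilotinib and 27.5, 36 and 31.8 CPM with pyrazolanthrone, and its highest DMSO well was at 15.1 CPM. None of the 3 genes passed in either direct comparison with MK-2206 (log2 differences of -0.14 to 0.65, adjusted p from 0.085 to 0.81).

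**Figure D5:**
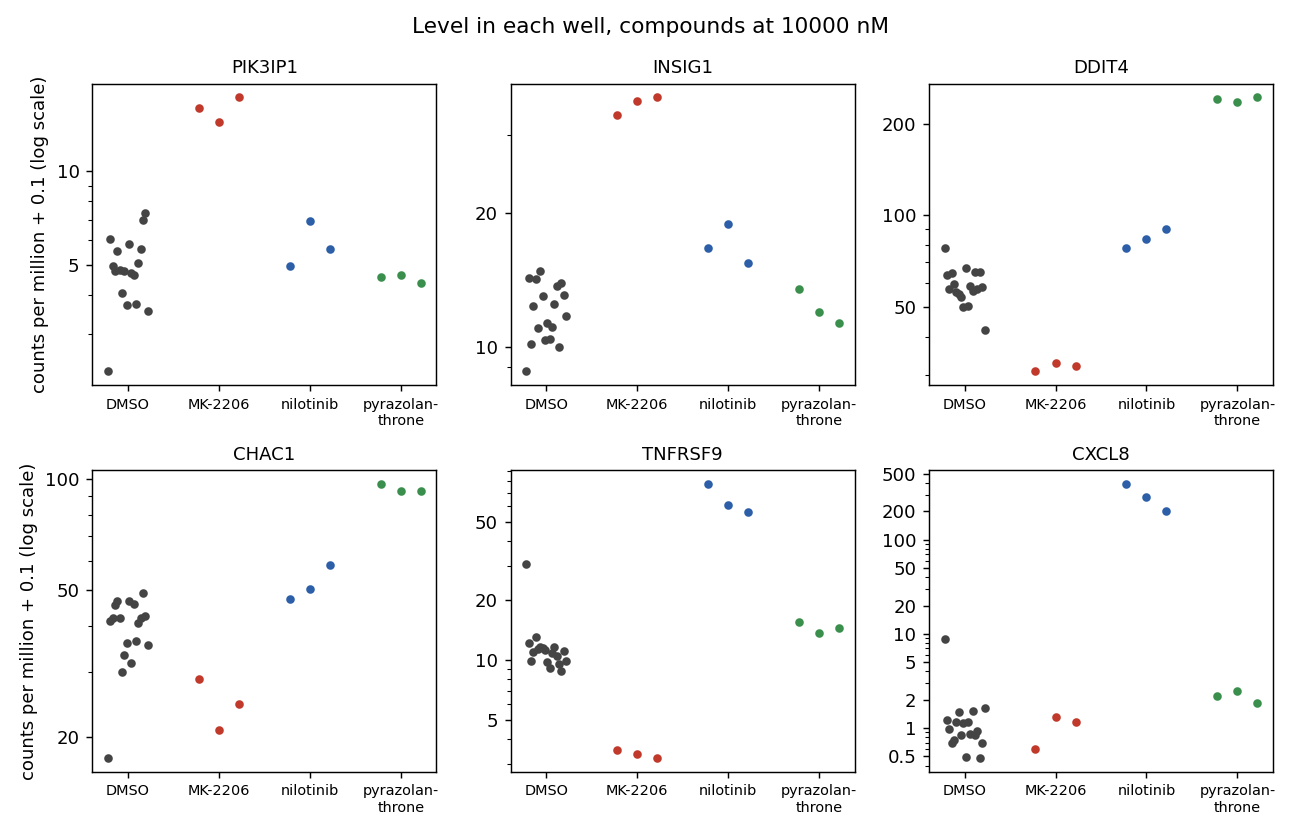
CPM plus 0.1 (log scale) in each well for 6 genes in DMSO and with MK-2206, nilotinib and pyrazolanthrone at 10000 nM. PIK3IP1 and INSIG1 are highest with MK-2206, DDIT4 is highest with pyrazolanthrone at 235 to 244 CPM, and CXCL8 is highest with nilotinib at 202 to 389 CPM.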

How the data were processed

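The values are RSEM expected counts, which the authors deposited per gene and well with TPM values. Per the labels, TruSeq Stranded mRNA libraries were made, and the submitters' processing notes name GRCh38, HTSeq, RSEM and DESeq2. The annotation release and RSEM version are not given in the sources used here, nor is the strand setting, so overlapping antisense genes could share reads. RSEM divides reads between similar genes, which makes near-identical copies uncertain. TPM, deposited by the authors, was used only for the levels of AKT1 and AKT2.

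Expected counts were rounded, filtered with filterByExpr (a minimum count of 10), scaled by TMM and tested with edgeR 4.0.16 quasi-likelihood fits in R 4.3.3, each with the wells of the groups compared. P-values were adjusted by Benjamini-Hochberg over all tested genes. Symbols came from a name table for 56104 of 60371 identifiers, and positions from GENCODE release 44. The labels give the middle dose as 1000 nM. The same numbers label wells of different groups. The correlation of deviations of same-numbered wells was 0.384, 0.738 and 0.121 between 10000 and 1000 nM, above 0.1 in every pair. A block was therefore given beside that comparison after these correlations were seen, and the labels do not say what the number marks. GC slopes of wells 1 to 3 were 0.272, -0.162 and 0.120 at 10000 nM. They were 0.328, -0.214 and 0.393 at 1000 nM, and -0.353, 0.279 and -0.259 at 100 nM. Whether the block follows GC slope was not tested. Between 10000 and 100 nM the correlation was negative in every pair (-0.463, -0.691 and -0.145). Pairs of MK-2206 wells differed well beyond counting noise (chi-square per degree of freedom of at least 23.4), so no well was the same library read again. Separate libraries from the same RNA or culture would also differ by more than counting noise, so this check cannot tell whether wells shared a culture. Fits were tested on simulated data with 200 changed genes, the same spread for every gene and no GC effect. Their error rates in the real wells were not measured. Promoters came from RefSeq, with the first listed start where a gene has several.

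The genes named were the 10 largest rises and falls of protein-coding genes with at least 5 CPM whose 3 wells lay outside the DMSO range, up to 4 members per list and direction with at least 1 CPM, 15 genes named whatever their value, such as AKT1, INSR and CDC20, and the 3 largest differences per direction in each direct comparison. Members and lists were chosen with earlier results of these data known. Other list members and genes named as examined later were chosen after their values were seen. Some genes of the lists are not reported here by name.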

Additional observations from a re-analysis of the deposited data

How the results depend on the processing

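No named gene changed direction under any alternative. Of the 73 named genes past the threshold against DMSO, 45 kept it with each well left out in turn and 28 lost it at least once. Of these 28, all but MSMO1 and RAB7B lost it in at least 2 of the 21 fits. The MK-2206 well named beside a loss is the one with the highest adjusted p. Against DMSO, leaving out 1 well gave 82 to 111 raised and 19 to 32 lowered genes, or 206 to 525 and 60 to 254 by adjusted p alone, where the lowest values all came without an MK-2206 well and the highest by adjusted p alone (525 and 254) without DMSO replicate 10. A minimum of 10 counts in every well, which the shallow DMSO well restricts to 7779 genes, gave 22 raised and 1 lowered (236 and 74 by adjusted p alone). Using DMSO wells 1 to 3 only gave 36 and 3 (46 and 3), and the replicate block on them gave 97 lowered by adjusted p alone. The numbers did not pair these wells (correlations of 0.306, -0.123 and 0.065). DESeq2 lowered 324 by adjusted p alone, fragment length as a covariate 388, and GC slope as a covariate gave 1011 raised and 1030 lowered, with 47 past both thresholds. The cause was not tested. Against 1000 nM, DESeq2 gave 29 higher and 1 lower, the replicate block 64 and 4, the joint fit over DMSO and the 3 doses, chosen after seeing the data, 13 higher, and leaving out a well 0 to 3. Against 100 nM, DESeq2 gave 44 and 3, the joint fit 40 and 2, and leaving out a well 0 to 7 higher. Against nilotinib, DESeq2 gave 163 higher, the replicate block 62, GC slope, an alternative also added after seeing the data, 59, and leaving out a well 23 to 452 higher and 159 to 725 lower. Against pyrazolanthrone, DESeq2 gave 171 higher, the replicate block 66, and leaving out a well 27 to 486 higher and 35 to 534 lower. With GC slope as a covariate there, also added after seeing the data, 3132 genes had an unadjusted p under 0.05 by edgeR. The main fit had 4389. The block with DMSO wells 1 to 3 also moved list counts: receptor kinases from 3 to 1 higher, and ATF4 genes from 6 to 2, G1 genes from 5 to 3 and DNA replication genes from 3 to 0 lower, while cholesterol genes went from 15 to 17 higher and ERK feedback genes from 9 to 10. Depth limits DMSO replicate 10, where 1 read was worth 2.17 CPM.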

Other observations

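Several genes outside the lists moved with 10000 nM MK-2206, and they were picked here after their values were seen. YPEL1 and YPEL2, relatives of YPEL3, were also higher: YPEL1 had 9.34, 7.70 and 9.86 CPM against 2.09 to 6.74 CPM (log2 fold change 1.17 ± 0.18, adjusted p = 0.00023 by edgeR), and YPEL2 had 21.9, 33.1 and 27.6 CPM against a DMSO median of 11.2 CPM (1.30 ± 0.16, adjusted p = 1.63e-05). YPEL5 was at 26.5, 30.3 and 27.2 CPM against 19.0 to 34.3 CPM and did not pass (0.18 ± 0.15).

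Several genes called higher had low levels. CDH5, the endothelial marker VE-cadherin, had 0.891, 0.933 and 1.05 CPM against 0 to 0.598 CPM (2.21 ± 0.32, adjusted p = 0.00012). EDN1, endothelin 1, had 6.04, 8.04 and 5.80 CPM against 0 to 2.88 CPM (1.55 ± 0.16), and TMEM204 had 1.20, 1.12 and 1.34 CPM against 0 to 0.498 CPM (2.34 ± 0.39). NOS3, the endothelial nitric oxide synthase gene, had 0.310, 0.670 and 0.721 CPM against 0 to 0.299 CPM (1.91 ± 0.36). All wells of these 4 genes lay above the DMSO range. The other 4 endothelial markers, PECAM1, VWF, TEK and CLDN5, did not pass, and the summed level of the 5 overlapped between the groups, as given above. At 1000 nM, CDH5 (1.77, adjusted p = 0.004), EDN1 (1.79, adjusted p = 4.02e-06) and TMEM204 (2.11, adjusted p = 0.0055) were also higher than DMSO. NNMT, nicotinamide N-methyltransferase, was highly expressed, with 546, 431 and 480 CPM against 202 to 263 CPM (1.07 ± 0.09, adjusted p = 2.45e-08).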
